A study of Mus musculus with 8 samples.

Results

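The MHC class II presentation genes are described here in EMT6 mammary tumours of mice treated with GrB-Fc-KS49 or with control IgG. The set holds 10 genes taken by symbol from the 26709 genes of the deposited count table: H2-Aa, H2-Ab1, H2-Eb1, H2-DMa, H2-DMb1, H2-DMb2, Cd74, Ciita, Ctss and Ifi30. All 10 passed the filter on low counts, together with 19718 genes in all. In the agent GrB-Fc-KS49, granzyme B, a protease of cytotoxic lymphocytes, is part of a human fusion protein aimed at EMP2, a protein of the cell membrane. EMT6 is a mammary carcinoma line grown in Balb/c mice of the same strain background, of wild-type genotype per the labels.

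There were 4 GrB-Fc-KS49 tumours and 4 IgG control tumours, both groups treated 3 times within 10 days, and RNA of the tumour was sequenced. The question behind the comparison is how the agent reshapes the tumour and its immune cells. Library totals ran from 74.6 to 80.9 M estimated counts in GrB-Fc-KS49 tumours and from 74.0 to 82.6 M in IgG control tumours. Levels are given as CPM, counts scaled to 1000000 per library after edgeR's TMM adjustment. The labels call the material epithelial breast tumor cells. The epithelial keratin Krt8 was at 391 to 631 CPM in GrB-Fc-KS49 tumours and at 414 to 468 CPM in controls, and the macrophage marker Csf1r was at 158 to 214 CPM and at 137 to 202.5 CPM, so the libraries hold RNA of other cells as well. In such bulk RNA, more cells of a presenting type and more class II RNA per cell cannot be told apart. The titles carry 8 different M numbers for the 8 tumours, and the sources used here do not say what they number or that each tumour came from its own animal, so p-values reflect the spread among these samples, which may in part be technical.

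MHC class II molecules display peptides from engulfed and endosomal proteins to CD4 T cells. Dendritic cells, B cells and macrophages carry them constitutively or after stimulation, and interferon gamma induces them in many other cells through the transactivator CIITA. The alpha and beta chains assemble with the invariant chain CD74 in the endoplasmic reticulum. In endosomes the invariant chain is cut down, the reductase GILT opens disulfide bonds of the antigens, and the DM heterodimer exchanges the last invariant chain fragment for peptide. Balb/c mice make the classical molecules I-A (H2-Aa with H2-Ab1) and I-E (H2-Ea with H2-Eb1).

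All 10 genes had a higher mean in GrB-Fc-KS49 tumours than in IgG control tumours, a direction shared by 53.2% of all genes tested. The log2 fold changes, GrB-Fc-KS49 over IgG control, ran from 0.50 for Ifi30 to 2.96 for H2-Eb1, with a median of 2.40 for the 10 genes and 0.03 for all genes. None of the 10 passed an adjusted p of 0.05 in edgeR's quasi-likelihood test with Benjamini-Hochberg adjustment, and neither did any of the 19718 genes (0%). At an unadjusted p under 0.05, 9 of the 10 were higher (all but Ctss), against 17.3% of all genes. DESeq2 called 7 of the 10 higher at an adjusted p under 0.05, all but H2-DMa, Ciita and Ctss, against 12.3% of all genes. Limma-voom called 0 of the 10, and 0% of all genes higher, and limma-voom with sample weights called 0 of the 10 and 2.34% of all genes higher. Limma on log2(CPM + 1) and on log2(CPM + 0.25) called 0 of the 10 and 0% of all genes, so these counts say nothing about the 10. At an unadjusted p under 0.05, limma-voom had 1 of the 10 higher, Ifi30, against 14.1% of all genes, and limma-voom with sample weights the same gene, against 12.7%.

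The 8 tumours fell in nearly one order for all 10 genes. GrB-Fc-KS49 replicate 1 was the highest of the 8 and GrB-Fc-KS49 replicate 2 came next for 10 of the 10. IgG control replicate 1 was the lowest of the 8 for 10 of the 10, and IgG control replicate 3 the highest control for 10 of the 10. GrB-Fc-KS49 replicate 3 was the lowest treated tumour throughout and the second lowest of the 8 for 9 genes. GrB-Fc-KS49 replicate 4 was above every control for 7 genes and inside the range of the controls for H2-DMb1, Ciita and Ctss. The groups overlapped for 9 genes. For Ifi30 alone every GrB-Fc-KS49 tumour was above every control, 1 of 10 genes against 10.3% of all genes tested.

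**Figure D1:**
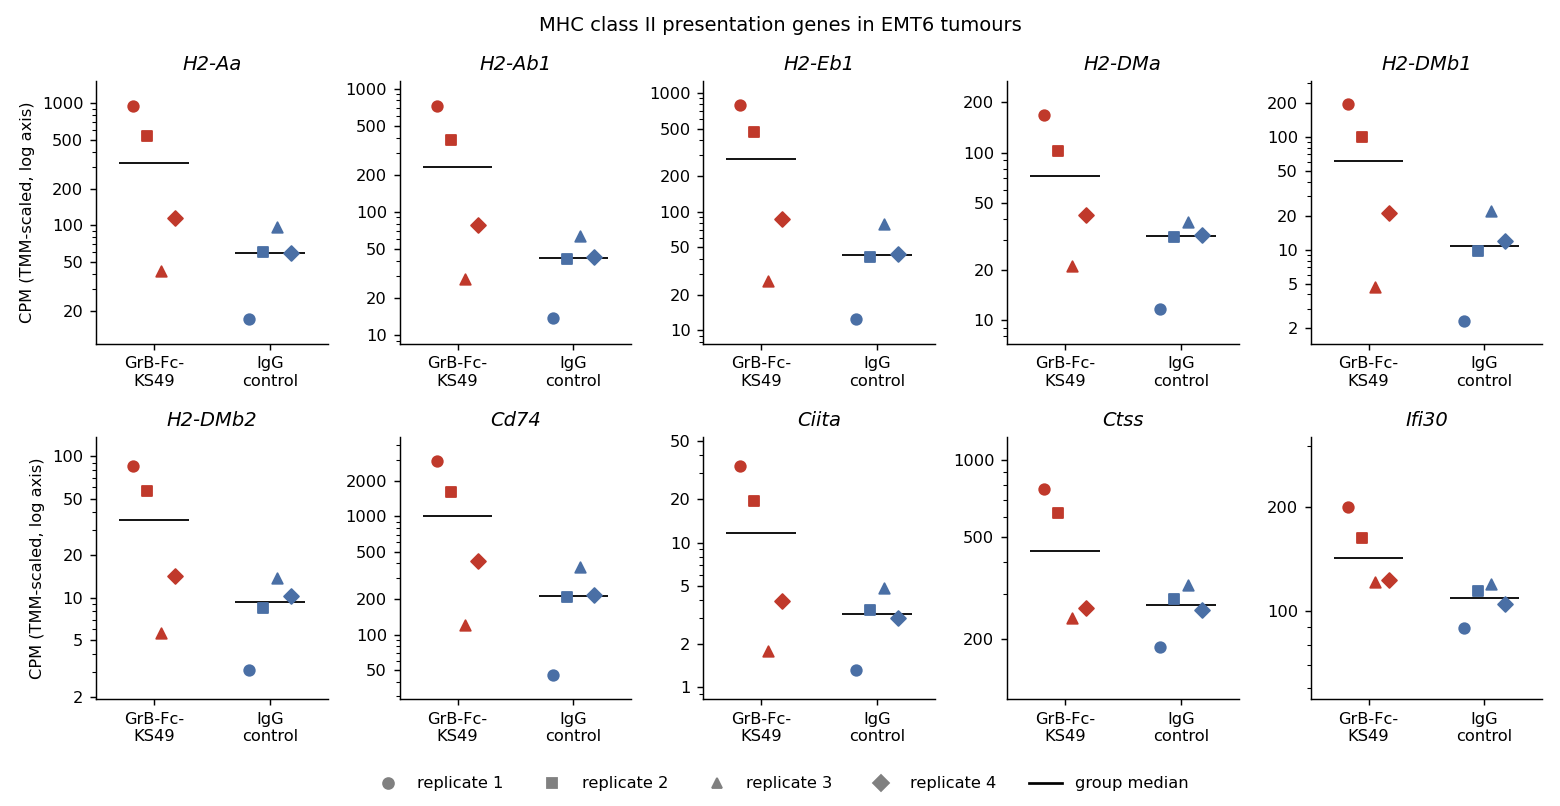
TMM-scaled CPM (log axis, own scale for each gene) of the 10 MHC class II presentation genes in 4 GrB-Fc-KS49 tumours (red) and 4 IgG control tumours (blue); the marker shape gives the replicate and the line the group median. GrB-Fc-KS49 replicates 1 and 2 lie on top in all 10 panels, and only in the Ifi30 panel do all 4 treated tumours lie above all 4 controls.

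The classical class II genes are switched on through a promoter module that is well known. Its X box is bound by the RFX complex of Rfx5, Rfxap and Rfxank, the bases just downstream of it by CREB1, and its Y box by NF-Y, and CIITA docks on the assembled proteins without binding DNA itself. RefSeq promoter windows (GRCm38.p6, 250 bases before to 50 bases after the start) were matched by symbol for 7 of the 10 genes. The module was searched on both strands as CNNNNAAC followed by GATTGG, with the second starting 20 to 40 bases after the start of the first. It was found for 4 of the 7, H2-Aa, H2-Eb1, H2-DMb1 and H2-DMb2, and in 1% of 32851 windows in all. The stretches below are the 4 matches, with the X box letters and the Y box letters in capitals. Their order of tumours was not particular to them. H2-DMa, whose windows hold no module, had the same order as H2-Eb1 and H2-DMb2.
H2-Aa, chr17:34287852-34287922, minus strand: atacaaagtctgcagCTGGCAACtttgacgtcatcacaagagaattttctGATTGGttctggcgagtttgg
H2-Eb1, chr17:34305758-34305827, plus strand: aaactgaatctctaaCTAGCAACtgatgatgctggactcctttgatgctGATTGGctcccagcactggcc
H2-DMb1, chr17:34153079-34153149, plus strand: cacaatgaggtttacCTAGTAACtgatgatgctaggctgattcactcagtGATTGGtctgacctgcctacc
H2-DMb2, chr17:34145108-34145178, plus strand: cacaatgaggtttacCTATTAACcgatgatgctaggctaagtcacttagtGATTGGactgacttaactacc

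The X box starts 35 bases before the Y box in H2-Aa, H2-DMb1 and H2-DMb2 and 34 bases before it in H2-Eb1. The stretches of H2-DMb1 and H2-DMb2 share 62 of 71 bases. The Y box letters GATTGG alone, or their reverse complement CCAATC, stand in 16.1% of all windows. The H2-DMa and Ifi30 windows hold no module by these letters. A match is a string of letters and no evidence of binding in these tumours.

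Ctss holds instead the letters GAAA, 2 further bases and GAAA, the core of an interferon-stimulated response element, which stand on either strand in 3.44% of all windows and in none of the windows of the other 6 genes matched. H2-Ab1, Cd74 and Ciita had no window and were not searched. The match is shown because Ctss alone of the 7 genes searched holds it, with its letters in capitals.
Ctss, chr3:95526740-95526785, plus strand: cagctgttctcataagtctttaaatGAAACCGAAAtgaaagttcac

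Ciita encodes the transactivator without which the class II genes stay nearly silent. It lies at chr16:10297923-10346282 on the plus strand (GRCm39, as are all gene positions below). Ciita stood at 33.6, 19.4, 1.78 and 3.98 CPM in GrB-Fc-KS49 tumours 1 to 4, against 1.33, 3.43, 4.87 and 3.03 CPM in IgG control tumours 1 to 4. Replicates 1 and 2 of the treated group were above every control, and replicates 3 and 4 lay within the range of the controls. The mean was 14.7 ± 14.9 CPM in treated tumours and 3.16 ± 1.46 CPM in IgG control tumours (SD, n = 4 each). Its edgeR log2 fold change was 2.22 (SE 0.86, adjusted p = 0.112), and leaving out GrB-Fc-KS49 replicate 1 gave 1.40. The opposite strand of this locus holds Dexi, which averaged 17.1 ± 3.54 CPM in treated tumours and 11.8 ± 0.867 CPM in IgG control tumours, with groups that did not overlap (log2 fold change 0.54, edgeR adjusted p = 0.0628). The sources used here do not state whether strand was used in counting. It is therefore not known whether reads of the overlapping parts of Ciita and Dexi were told apart.

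The classical chains had the largest folds of group means among the 10 genes. H2-Aa, the I-A alpha chain (chr17:34501718-34506797, minus strand), stood at 953, 536, 42.5 and 115 CPM in GrB-Fc-KS49 tumours 1 to 4, against 17.2, 60.5, 96.8 and 58.9 CPM in IgG control tumours 1 to 4. H2-Ab1, the I-A beta chain (chr17:34476663-34488393, plus strand), stood at 719, 383, 28.8 and 78.4 CPM in treated tumours, against 13.7, 41.5, 63.9 and 42.9 CPM in controls. H2-Eb1, the I-E beta chain (chr17:34524841-34535648, plus strand), stood at 787, 473, 26.2 and 87.0 CPM in treated tumours, against 12.4, 41.6, 78.3 and 44.0 CPM in controls. For each of the 3 chains, treated replicates 1, 2 and 4 were above every control and replicate 3 was below every control but IgG control replicate 1. Within the treated group, H2-Aa was 22.4-fold, H2-Ab1 25.0-fold and H2-Eb1 30.0-fold higher in replicate 1 than in replicate 3. Within the controls the highest tumour exceeded the lowest by 5.62-fold, 4.67-fold and 6.32-fold for the same genes.

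The fold of the group means was 7.05 for H2-Aa, 7.46 for H2-Ab1 and 7.79 for H2-Eb1. In edgeR, H2-Aa had a log2 fold change of 2.82 (SE 0.94, adjusted p = 0.0831), H2-Ab1 one of 2.90 (SE 0.95, adjusted p = 0.0800) and H2-Eb1 one of 2.96 (SE 1.01, adjusted p = 0.0862). DESeq2 gave adjusted p-values of 0.0201 for H2-Aa, 0.0174 for H2-Ab1 and 0.0211 for H2-Eb1. Without GrB-Fc-KS49 replicate 1, the edgeR log2 fold changes were 1.99 for H2-Aa, 2.01 for H2-Ab1 and 2.15 for H2-Eb1. The deposited counts come from alignment to a genome of C57BL/6 origin, whose class II alleles differ from those of Balb/c, and the effect of this on the class II counts was not tested.

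Cd74 encodes the invariant chain, which fills the groove of new class II molecules and steers them to endosomes. It lies at chr18:60936920-60945724 on the plus strand. Cd74 stood at 2940, 1598, 120.9 and 415 CPM in GrB-Fc-KS49 tumours 1 to 4, against 45.6, 209, 375 and 216 CPM in IgG control tumours 1 to 4. The treated tumours thus spanned both the top of the whole series and a value below 3 of the 4 controls. The mean was 1269 ± 1284 CPM in treated tumours and 211 ± 134.5 CPM in IgG control tumours (SD, n = 4 each). In edgeR its log2 fold change was 2.59 (SE 0.97, adjusted p = 0.104; DESeq2 adjusted p = 0.0182), and leaving out GrB-Fc-KS49 replicate 1 gave 1.75.

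The DM genes encode the peptide exchange factor, H2-DMa its alpha chain and H2-DMb1 and H2-DMb2 alternative beta chains. H2-DMa (chr17:34338515-34358075, plus strand) stood at 167, 102, 21.1 and 42.4 CPM in GrB-Fc-KS49 tumours 1 to 4, against 11.6, 31.5, 38.3 and 32.3 CPM in IgG control tumours 1 to 4. H2-DMb1 (chr17:34372046-34379204, plus strand) stood at 196, 100.5, 4.69 and 21.3 CPM in treated tumours, against 2.35, 9.72, 22.1 and 11.9 CPM in controls. H2-DMb2 (chr17:34362281-34370529, plus strand) stood at 85.7, 56.5, 5.65 and 14.2 CPM in treated tumours, against 3.08, 8.50, 13.8 and 10.2 CPM in controls. H2-DMb1 had the widest span of the 10 genes, 83.6-fold from the lowest to the highest of the 8 tumours, and H2-DMa spanned 14.4-fold.

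Their log2 fold changes in edgeR were 1.55 for H2-DMa (SE 0.63, adjusted p = 0.123), 2.81 for H2-DMb1 (SE 1.08, adjusted p = 0.110) and 2.19 for H2-DMb2 (SE 0.82, adjusted p = 0.104). DESeq2 gave adjusted p-values of 0.0768, 0.0405 and 0.0453 for the same genes. The transcripts of H2-DMb1 and H2-DMb2 are alike, with 69.1% identity end to end and 26.6% of the 50-base windows of the H2-DMb1 transcript found whole in that of H2-DMb2, so the division of reads between them is uncertain. With the counts of both summed, the log2 fold change was 2.57 (SE 0.97, adjusted p = 0.106). H2-DMa shares its locus with Brd2 on the opposite strand, a chromatin reader that averaged 25883 estimated counts per library, against 4367 for H2-DMa. Brd2 averaged 322 ± 13.6 CPM in treated tumours and 335 ± 12.6 CPM in IgG control tumours (SD, n = 4 each; log2 fold change -0.06, edgeR adjusted p = 0.538). As for Ciita and Dexi, it is not known whether reads of the overlapping parts of H2-DMa and Brd2 were told apart. The part of Brd2 reads in the H2-DMa levels was not tested.

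The endosomal enzymes had the smallest fold changes of the 10 genes. Ctss, cathepsin S, makes the late cuts in the invariant chain of many presenting cells (chr3:95434097-95463714, plus strand). Ctss stood at 773, 622, 242 and 263 CPM in GrB-Fc-KS49 tumours 1 to 4, against 186, 286, 324 and 259 CPM in IgG control tumours 1 to 4. Treated replicates 3 and 4 were within the range of the controls. Its log2 fold change was 0.85 (SE 0.39, edgeR adjusted p = 0.157). Ifi30 encodes GILT, the endosomal thiol reductase (chr8:71215419-71219307, minus strand). Ifi30 stood at 199.5, 162, 122 and 123 CPM in treated tumours, against 89.4, 114, 119.9 and 105 CPM in controls. The gap between the lowest treated tumour (121.6 CPM) and the highest control (119.9 CPM) was small beside the SD of either group. The mean of Ifi30 was 152 ± 37.0 CPM in treated tumours and 107 ± 13.4 CPM in IgG control tumours (SD, n = 4 each). In the fit, its log2 fold change was 0.50 (SE 0.17, edgeR adjusted p = 0.0844; DESeq2 adjusted p = 0.0295).

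**Figure D2:**
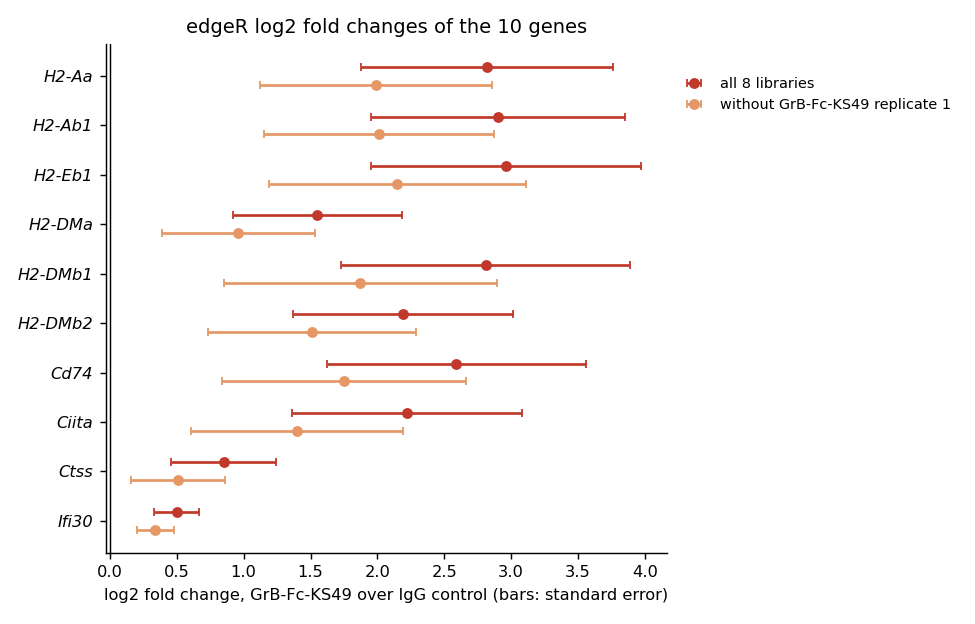
edgeR log2 fold changes, GrB-Fc-KS49 over IgG control, of the 10 genes with all 8 libraries (dark red) and without GrB-Fc-KS49 replicate 1 (orange); bars are the standard error. With all libraries they run from 0.50 (Ifi30) to 2.96 (H2-Eb1), and without that tumour each is smaller, from 0.34 to 2.15.

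GrB-Fc-KS49 replicate 1 carried the highest value of each gene. Without it the median log2 fold change of the 10 genes was 1.63, and 1 gene, Ifi30, was higher at an unadjusted p under 0.05, against 12.3% of all genes. At an adjusted p under 0.05, edgeR then called 0 of the 10, against 2.23% of all genes higher and 6.32% in either direction. Without GrB-Fc-KS49 replicate 4 it also called 0 of the 10, against 7.12% of all genes higher and 17.1% in either direction. Without replicate 1, the remaining treated tumours averaged 231 ± 266 CPM for H2-Aa and 711 ± 782 CPM for Cd74 (SD, n = 3), against the control means of 58.4 ± 32.5 CPM and 211 ± 134.5 CPM (SD, n = 4).

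The titles of GrB-Fc-KS49 replicate 3 and IgG control replicate 1 end in U, a suffix that the labels do not explain. Each was the lowest tumour of its group for 10 of the 10 genes. Set against each other, GrB-Fc-KS49 replicate 3 was higher than IgG control replicate 1 for 10 of the 10 genes, against 52.2% of all genes, by 1.30-fold for Ctss up to 2.65-fold for Cd74. Without both, the groups did not overlap for 7 of the 10 genes, against 16.2% of all genes, H2-DMb1, Ciita and Ctss being the exceptions. The same 7 were separate when GrB-Fc-KS49 replicate 3 alone was left out, against 14.4% of all genes. Leaving out the lowest treated tumour favours separation of these genes, so these counts carry no test. Without both tumours, 10 of the 10 were higher at an unadjusted p under 0.05, against 13.9% of all genes, and the edgeR adjusted p-values were 0.162, or 0.176 for Ctss. With the suffix as a covariate in the fit, the log2 fold changes were 0.50 for Ifi30 to 2.58 for H2-Eb1.

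The chains kept nearly the same proportion to each other in every tumour. The ratio of H2-Aa to H2-Ab1, the partners of I-A, was 1.33, 1.40, 1.48 and 1.47 in GrB-Fc-KS49 tumours 1 to 4, against 1.26, 1.46, 1.52 and 1.37 in IgG control tumours 1 to 4. It moved 1.20-fold over tumours in which H2-Aa itself moved 55.4-fold. The ratio of H2-Eb1 to H2-Ab1 lay between 0.911 and 1.24 in treated tumours and between 0.907 and 1.23 in controls. The ratio of Cd74 to H2-Ab1 lay between 4.09 and 5.30 in treated tumours and between 3.33 and 5.87 in controls.

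Other proportions were less even. The ratio of H2-DMa to H2-Ab1 was 0.232, 0.268, 0.735 and 0.540 in GrB-Fc-KS49 tumours, against 0.848, 0.760, 0.600 and 0.753 in IgG control tumours. It was lowest in the tumours with the most class II RNA, of which its divisor H2-Ab1 is itself a part. The ratio of H2-DMb1 to H2-DMb2 was 2.29, 1.78, 0.830 and 1.50 in treated tumours, against 0.761, 1.14, 1.61 and 1.16 in controls. Per 1000 units of H2-Ab1, Ciita stood at 46.8, 50.6, 62.0 and 50.8 in treated tumours, against 97.3, 82.6, 76.2 and 70.6 in controls. The 2 groups did not overlap in this ratio of Ciita to H2-Ab1, which was picked out after its values were seen and carries no test. The part of Brd2 reads in the ratio of H2-DMa to H2-Ab1, and of Dexi reads in that of Ciita, was not tested. Ctss and Ifi30 stood in a ratio of 3.87, 3.83, 1.99 and 2.14 in treated tumours, against 2.08, 2.50, 2.70 and 2.47 in controls.

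**Figure D3:**
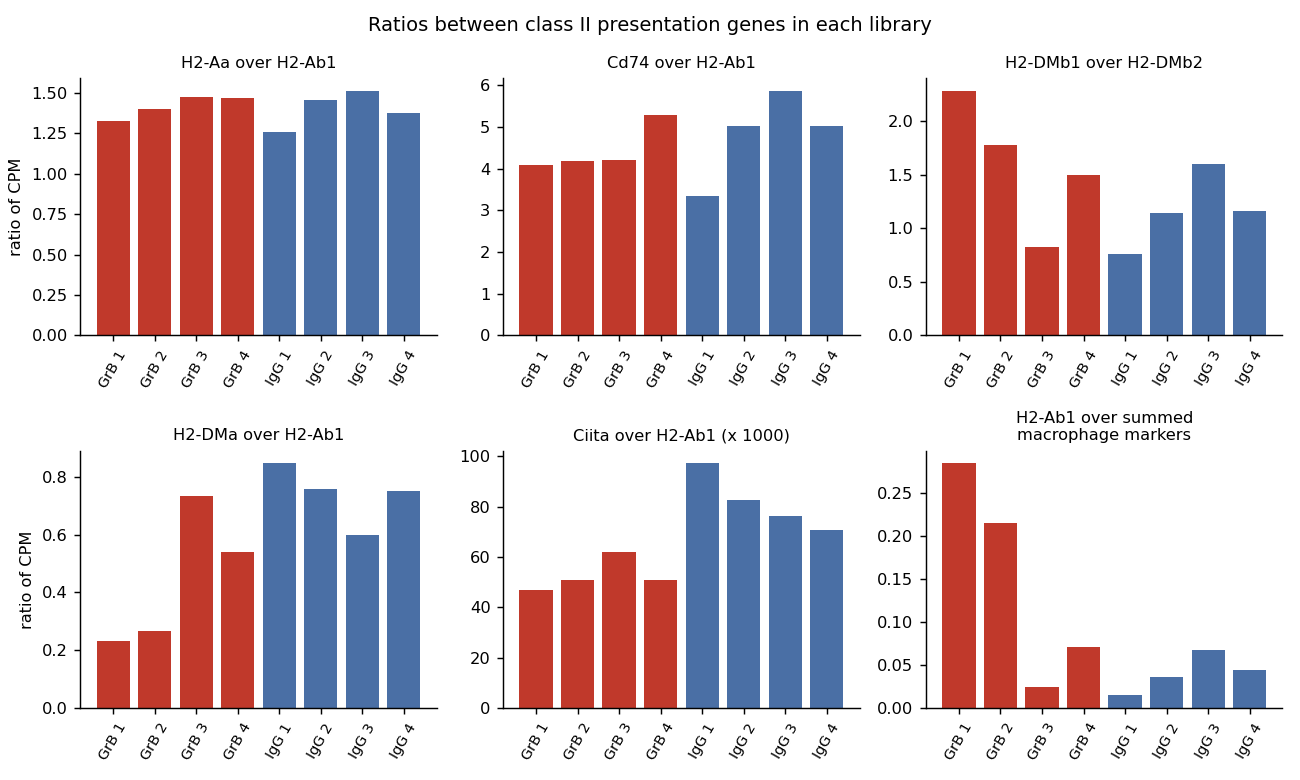
Ratios of CPM between class II presentation genes, and of H2-Ab1 to the summed macrophage markers, in each library (GrB = GrB-Fc-KS49, red; IgG = IgG control, blue; axes start at 0). The ratio of H2-Aa to H2-Ab1 stays between 1.26 and 1.52, while that of H2-DMa to H2-Ab1 runs from 0.232 to 0.848.

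Together the 10 genes took 0.685%, 0.405%, 0.0615% and 0.116% of the scaled counts in GrB-Fc-KS49 tumours 1 to 4, against 0.0383%, 0.0805%, 0.114% and 0.0782% in IgG control tumours 1 to 4. Per kilobase of the longest protein-coding GENCODE transcript, the order of mean levels in treated tumours was Cd74 (900 ± 911 CPM per kb), H2-Aa (365 ± 374), Ctss (351 ± 195), H2-Ab1 (249 ± 263), H2-Eb1 (206 ± 213), Ifi30 (155 ± 37.8), H2-DMb1 (57.5 ± 62.4), H2-DMa (41.5 ± 32.7), H2-DMb2 (27.3 ± 25.3) and Ciita (2.45 ± 2.47). In controls it was Ctss (195 ± 43.0 CPM per kb), Cd74 (150 ± 95.4), Ifi30 (109 ± 13.6), H2-Aa (51.7 ± 28.8), H2-Ab1 (33.4 ± 17.0), H2-Eb1 (26.4 ± 16.2), H2-DMa (14.2 ± 5.80), H2-DMb1 (8.20 ± 5.81), H2-DMb2 (6.003 ± 3.01) and Ciita (0.527 ± 0.243), all SD with n = 4. The ranges of all neighbours in the treated order overlapped. In controls the ranges of Ifi30 and H2-Aa, and those of H2-DMb2 and Ciita, did not overlap, and all other neighbours did.

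To describe the shared pattern, each gene's log2 CPM was centred on its mean over the 8 tumours. The median of the 10 centred profiles was 2.95, 2.12, -1.34 and 0.07 in GrB-Fc-KS49 tumours 1 to 4, against -2.31, -0.71, -0.02 and -0.64 in IgG control tumours 1 to 4. The mean absolute distance from it was between 0.11 (H2-DMb2) and 0.42 (H2-DMa) for 8 genes, 0.81 for Ctss and 1.03 for Ifi30 on the log2 scale. The 5 genes outside the set nearest to this profile, among those with a mean of at least 1 CPM, were Sectm1a (distance 0.12), Gzma (0.13), H2-Ea (0.14), Slamf7 (0.15) and Fcgr4 (0.16).

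Gzma encodes granzyme A of cytotoxic lymphocytes, and Fcgr4 an activating IgG receptor of mouse myeloid cells. Gzma stood at 9.10, 4.14, 0.452 and 1.28 CPM in GrB-Fc-KS49 tumours 1 to 4, against 0.230, 0.883, 1.06 and 0.645 CPM in IgG control tumours. Fcgr4 stood at 165, 61.4, 9.11 and 21.5 CPM in treated tumours, against 4.16, 12.6, 17.8 and 11.9 CPM in controls. H2-Ea, the I-E alpha chain, stood at 273.5, 222, 13.5 and 39.2 CPM in treated tumours, against 6.76, 22.4, 38.9 and 21.0 CPM in controls. Its log2 fold change was 2.62 (SE 0.93, edgeR adjusted p = 0.0931), close in size to that of its partner H2-Eb1.

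**Figure D4:**
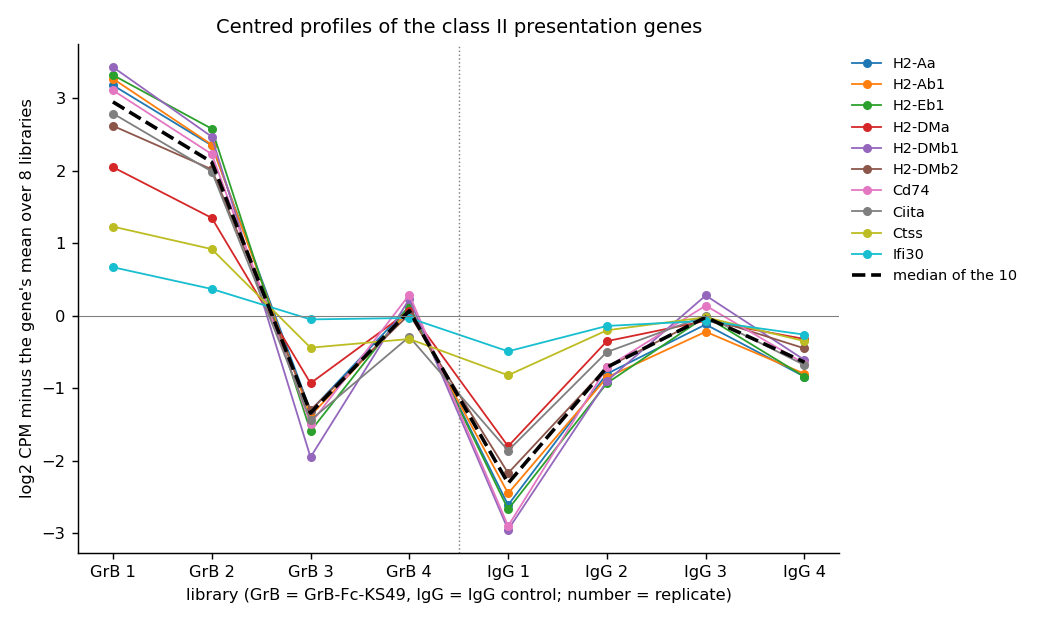
Log2 CPM of each of the 10 genes minus its own mean over the 8 libraries (GrB = GrB-Fc-KS49, IgG = IgG control); lines join the values of a gene and imply no order of tumours, and the dashed line is the median of the 10. The chains, Cd74, the DM genes and Ciita run close together, while Ctss and Ifi30 keep the same order of tumours with a smaller swing.

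Around these genes, 7 lists of the class II pathway named 45 other genes, of which 44 were measured and 42 tested. In edgeR 0 of the 42 passed an adjusted p of 0.05, and at an unadjusted p under 0.05 17 were higher and 5 lower, against 17.3% and 17.8% of all genes. The groups did not overlap for 6 genes that were higher and 4 that were lower, against 10.3% and 15.3% of all genes. These shares of all genes apply to each list below. DESeq2 called 12 higher and 4 lower, against 12.3% and 13.5% of all genes. Limma-voom called 0 in either direction, against 0% of all genes higher and 0.00507% lower, and limma-voom with sample weights 0 higher and 4 lower, against 2.34% and 4.08%. The 4 lower genes were Nfya, Creb1, Jak1 and Jak2 with DESeq2 and with the sample weights. Without GrB-Fc-KS49 replicate 1, edgeR called the same 4 lower and 1 higher (Tap2), against 4.09% and 2.23% of all genes, and 8 were higher at an unadjusted p under 0.05, against 12.3%. Without GrB-Fc-KS49 replicate 4, edgeR called these 4 lower, against 10% of all genes, and 7 higher, against 7.12%, which were Cd83, Lgmn, Ctsb, Ctsd, Ctsh, Cst3 and Socs1.

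The other class II chains and the DO chaperone, a DM inhibitor of B cells and some dendritic cells, had the direction of the set. All 3 tested, H2-Ea, H2-Oa and H2-Ob, were higher at an unadjusted p under 0.05, with a median log2 fold change of 1.47. H2-Oa was low, at 0.989, 0.639, 0.297 and 0.298 CPM in GrB-Fc-KS49 tumours, against 0.0967, 0.171, 0.235 and 0.298 CPM in IgG control tumours (log2 fold change 1.47, edgeR adjusted p = 0.0822). Of 8 endosomal proteases and their inhibitor, 5 were higher at an unadjusted p under 0.05, Lgmn, Ctsb, Ctsh, Ctsz and Cst3, with a list median of 0.39. Ctsh, cathepsin H, averaged 59.6 ± 23.6 CPM in treated tumours and 31.4 ± 1.25 CPM in IgG control tumours (SD, n = 4 each), without overlap (log2 fold change 0.93, edgeR adjusted p = 0.0636). Cst3, the cathepsin inhibitor cystatin C, averaged 556 ± 64.1 CPM in treated tumours and 402.5 ± 48.4 CPM in IgG control tumours, also without overlap (log2 fold change 0.47, edgeR adjusted p = 0.0619).

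The factors that act on the class II promoters were measured as well. Of 11 class II transcription factors, 1 was higher (Irf8) and 3 were lower (Rfx5, Nfya and Creb1) at an unadjusted p under 0.05. The shares of all genes were 17.3% and 17.8%, and the list median was 0.03. Nfya, the DNA-contacting subunit of NF-Y, stood at 46.2, 57.2, 56.5 and 58.3 CPM in GrB-Fc-KS49 tumours, against 70.5, 65.8, 72.4 and 71.9 CPM in IgG control tumours. Creb1 stood at 46.7, 52.6, 54.1 and 59.3 CPM in treated tumours, against 68.0, 64.8, 68.0 and 67.0 CPM in controls. For both genes every treated tumour was below every control, as for 15.3% of all genes tested. Their log2 fold changes were -0.36 for Nfya and -0.33 for Creb1 (edgeR adjusted p = 0.0619 for each). Rfx5 averaged 19.7 ± 1.72 CPM in treated tumours and 22.8 ± 1.55 CPM in IgG control tumours (SD, n = 4 each; log2 fold change -0.21, edgeR adjusted p = 0.126).

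In the interferon gamma axis, 3 of 8 genes were higher (Ifng, Ifngr2 and Socs1) and 2 lower (Jak1 and Jak2) at an unadjusted p under 0.05. The shares of all genes were 17.3% higher and 17.8% lower. Ifng itself was scarce, at 4.96, 1.09, 0.0595 and 0.261 CPM in GrB-Fc-KS49 tumours 1 to 4, against 0.0121, 0.185, 0.221 and 0.0620 CPM in IgG control tumours 1 to 4. Its highest values were in the 2 treated tumours with the most class II RNA, and replicate 3 was within the range of the controls (log2 fold change 3.73, SE 1.32, edgeR adjusted p = 0.0920, and 1.97 without replicate 1). Jak2, the receptor's kinase, stood at 69.6, 91.4, 83.4 and 110 CPM in treated tumours, against 135, 134, 129.6 and 119 CPM in controls, without overlap (log2 fold change -0.55, edgeR adjusted p = 0.0619). Jak1, its partner kinase, had a log2 fold change of -0.39 (edgeR adjusted p = 0.0619), also without overlap. Socs1, a feedback inhibitor of the kinases, averaged 18.9 ± 10.4 CPM in treated tumours and 8.86 ± 0.773 CPM in IgG control tumours (SD, n = 4 each), without overlap (log2 fold change 1.09, edgeR adjusted p = 0.0698).

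Of 3 genes of class II turnover at the surface, Cd83, which protects class II from ubiquitin-driven loss, was higher at an unadjusted p under 0.05. Cd83 stood at 10.3, 10.96, 3.64 and 4.23 CPM in GrB-Fc-KS49 tumours, against 2.39, 3.41, 2.97 and 2.90 CPM in IgG control tumours, without overlap (log2 fold change 1.32, edgeR adjusted p = 0.0638). The ubiquitin ligase gene Marchf8 had a log2 fold change of -0.27 (edgeR adjusted p = 0.198). Of 4 costimulatory ligands, Cd40 was higher at an unadjusted p under 0.05, with a log2 fold change of 1.41 (edgeR adjusted p = 0.0946), and Cd86 had one of 0.67 (edgeR adjusted p = 0.218). Of 6 tested neighbours in the class II region, 3 were higher at an unadjusted p under 0.05, Tap2, Psmb9 and Notch4, with a list median of 0.56. Tap2, a subunit of the class I peptide transporter, averaged 189.1 ± 55.8 CPM in treated tumours and 125 ± 8.60 CPM in IgG control tumours (SD, n = 4 each), without overlap (log2 fold change 0.59, edgeR adjusted p = 0.0681). Psmb9, an immunoproteasome subunit, had a log2 fold change of 0.95 (edgeR adjusted p = 0.0863).

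Markers of cells that carry class II molecules, and of tissues that a dissected tumour may include, were summed in the same libraries. In edgeR 0 of 57 tested marker genes passed an adjusted p of 0.05, and at an unadjusted p under 0.05 37 were higher and 1 lower (Zbtb46), against 17.3% and 17.8% of all genes. DESeq2 called 31 higher and 1 lower (Zbtb46), against 12.3% and 13.5% of all genes. Limma-voom called 0 of the markers. With sample weights it called 5 higher (Ccr9, Siglech, Klk1, Ccr7 and Cd22), against 2.34%. Without GrB-Fc-KS49 replicate 1, edgeR called 3 of them higher (Ccr9, Siglech and Klk1), against 2.23% of all genes, and without GrB-Fc-KS49 replicate 4 it called 26 higher, against 7.12%. The 10 macrophage markers summed to 2529, 1786, 1203 and 1112 CPM in GrB-Fc-KS49 tumours, against 892.5, 1143, 954 and 984 CPM in IgG control tumours. Against this sum, the ratio of H2-Ab1 was 0.284, 0.214, 0.0239 and 0.0705 in treated tumours, against 0.0153, 0.0363, 0.0670 and 0.0436 in controls, so it spanned 18.55-fold over the 8 tumours, where H2-Ab1 itself spanned 52.6-fold. The ratio of Ifi30 to this sum was between 0.0789 and 0.111 in treated tumours and between 0.100 and 0.126 in controls. Of the 10 macrophage markers, 4 were higher at an unadjusted p under 0.05, the complement C1q subunit genes C1qa, C1qb and C1qc and Aif1, and the list median was 0.64. C1qa and C1qc had log2 fold changes of 1.19 and 1.14 (edgeR adjusted p = 0.0628 and 0.0655). The other 6 ran from -0.39 (Mrc1) to 0.92 (Fcgr1), with Csf1r at 0.04 and Cd68 at 0.22.

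The 8 conventional dendritic cell markers summed to 52.9, 46.3, 19.6 and 24.8 CPM in GrB-Fc-KS49 tumours, against 15.1, 20.5, 24.6 and 24.5 CPM in IgG control tumours. Treated replicates 1 and 2 were on top and IgG control replicate 1 was lowest, as for the class II genes. The macrophage, B cell, T cell and lymph node stroma sums also had these treated tumours on top and this control lowest. Among the 8 conventional dendritic cell markers, 6 were higher and 1 lower at an unadjusted p under 0.05, with a list median of 1.32. Ccr7 had a log2 fold change of 1.31 and Flt3 one of 1.33 (edgeR adjusted p = 0.0619 for each). Zbtb46 was the lower one (log2 fold change -0.33, edgeR adjusted p = 0.0936). Much of the conventional dendritic cell sum was Itgax, at 29.7 and 32.1 CPM in treated replicates 1 and 2 (log2 fold change 0.95, edgeR adjusted p = 0.233). The 6 plasmacytoid dendritic cell markers summed to 334 to 565 CPM in treated tumours and 305 to 345 CPM in controls, with Ccr9 at a log2 fold change of 2.23 and Siglech at 2.01 (edgeR adjusted p = 0.0619 for each). Much of that sum was Tcf4, a transcription factor gene that other cells also use, at 190, 182, 414 and 283 CPM in treated tumours, against 285, 290.5, 224 and 274 CPM in controls (log2 fold change -0.01, edgeR adjusted p = 0.989). Tcf4 was highest in treated replicate 3 and lowest in treated replicates 1 and 2, while the other 5 markers were higher in the treated group at an unadjusted p under 0.05. Of these, Bst2 was also a large part of the sum, at 351, 139.5, 30.9 and 122 CPM in treated tumours 1 to 4. Cox6a2 stood at 12.85, 1.25, 1.33 and 0.460 CPM there, the same order of treated tumours as the skeletal muscle marker Ckm. Its log2 fold change was 3.21, and 1.24 without GrB-Fc-KS49 replicate 1. The 8 B cell markers were scarce and summed to 1.30 to 5.77 CPM in treated tumours and 0.713 to 1.20 CPM in controls, with Cr2 and Fcer2a at 0 in at least 1 tumour. Cd22 and Cd79a had log2 fold changes of 1.88 and 2.17 (edgeR adjusted p = 0.0619 for each). The 8 T cell markers summed to 77.0, 45.0, 13.6 and 28.6 CPM in treated tumours, against 11.2, 16.6, 17.1 and 17.1 CPM in controls, with Cd3d at a log2 fold change of 3.38 and Cd4 at 1.77 (edgeR adjusted p = 0.0619 and 0.0636).

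Skeletal muscle, skin and adipocyte markers were each high in a single treated tumour, unlike those of lymph node stroma. The 5 lymph node stroma markers summed to 10.5, 7.91, 1.04 and 4.65 CPM in GrB-Fc-KS49 tumours 1 to 4. Their sum was 0.0967 to 0.897 CPM in IgG control tumours, below every treated tumour. Cxcl13, the only one of them tested, had a log2 fold change of 3.37 (edgeR adjusted p = 0.0620). Ccl21a, Ccl19 and Madcam1 were at 0 in at least 1 tumour. Ccl21a stood at 2.49, 2.50, 0 and 0.112 CPM in GrB-Fc-KS49 tumours 1 to 4, and at no more than 0.06045 CPM in IgG control tumours. It was thus highest in the 2 treated tumours with the most class II RNA. Skeletal muscle markers summed to 2088 CPM in GrB-Fc-KS49 replicate 1, the tumour with the highest class II levels, against 35.6 to 335 CPM in the other treated tumours and 37.3 to 172 CPM in controls (Pvalb and Ckm, log2 fold changes 4.75 and 3.40, edgeR adjusted p = 0.0762 and 0.0920, and without replicate 1 log2 fold changes of 2.07 and 1.46). Skin and Langerhans cell markers summed to 1488 CPM in GrB-Fc-KS49 replicate 2, against 0.952 to 5.13 CPM in the other treated tumours and 0.629 to 1.66 CPM in controls. In that list Krt10 had a log2 fold change of 9.39 (edgeR adjusted p = 0.0729), and one of 1.67 without replicate 2. Cd207, the Langerhans cell marker, stood at 0.551, 2.14, 0.440 and 0.622 CPM in treated tumours, against 0.254, 1.20, 1.12 and 0.930 CPM in controls.

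Adipocyte markers summed to 420 CPM in GrB-Fc-KS49 replicate 3, the treated tumour with the lowest class II levels, against 65.4 to 142 CPM in the other treated tumours and 47.1 to 81.5 CPM in controls (Adrb3 and Lipe, log2 fold changes 2.89 and 0.88, edgeR adjusted p = 0.0659 and 0.0678, and without replicate 3 log2 fold changes of 2.03 and 0.60). The mammary carcinoma markers summed to 455 to 805 CPM in GrB-Fc-KS49 tumours and 465 to 549 CPM in controls (Esrp1 and Krt18, log2 fold changes 3.79 and 0.60, edgeR adjusted p = 0.0897 and 0.165). Esrp1 stood at 0.188, 11.4, 0.833 and 0.460 CPM in treated tumours, against 0.145, 0.396, 0.0828 and 0.298 CPM in controls, and its log2 fold change without GrB-Fc-KS49 replicate 2 was 1.12. The part of these cells and tissues in the levels of the 10 genes was not tested.

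**Figure D5:**
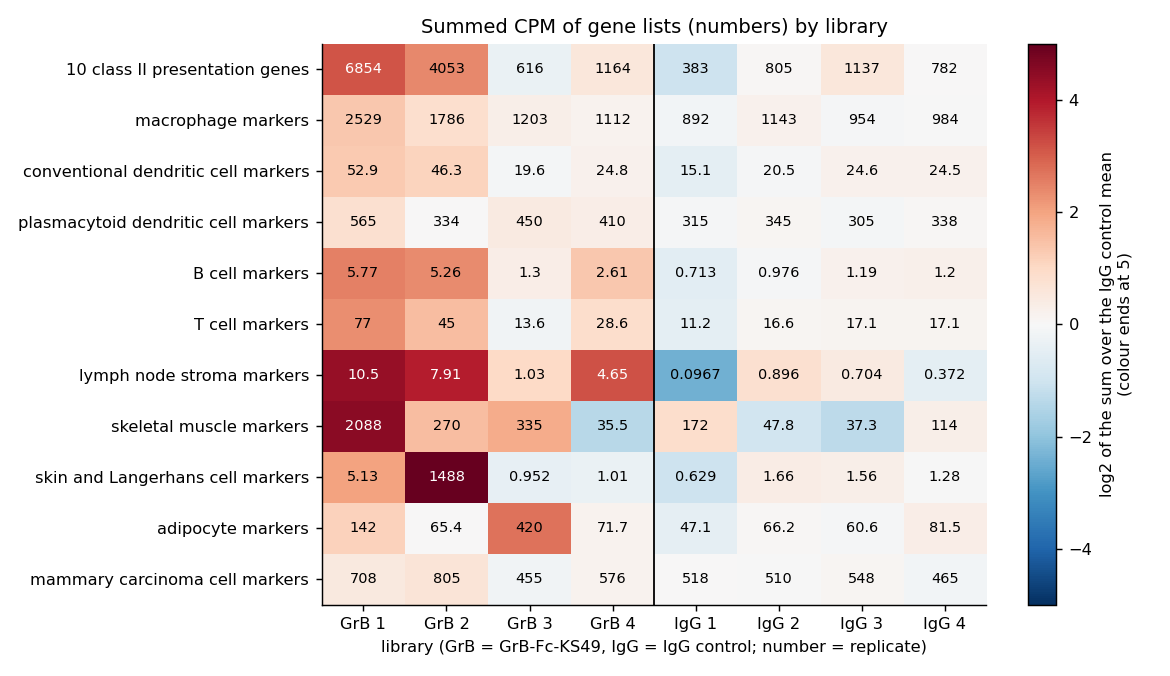
Summed CPM (numbers in the cells) of the 10 class II presentation genes and of 10 marker lists in each library (GrB = GrB-Fc-KS49, IgG = IgG control); colour gives log2 of the sum over the mean of the IgG control sums and ends at 5. The row of class II genes runs from 6854 CPM in GrB-Fc-KS49 replicate 1 to 383 CPM in IgG control replicate 1, and muscle, skin and adipocyte markers peak in GrB-Fc-KS49 replicates 1, 2 and 3.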

How the data were processed

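The authors deposited 2 tables for 8 libraries and 26709 genes, one of estimated counts and one of CPM; no gene had a total under 10 counts. Between 46.0% and 47.8% of the estimated counts in a library were whole numbers, and the deposited CPM were the counts plus 0.0001, divided by the library total and scaled to 1000000 (relative deviation of at most 8.8e-06). Per the labels' protocols, mRNA was enriched, fragmented and primed at random with the KAPA Stranded mRNA-Seq kit, with dUTP in the other cDNA strand. Per the submitters' processing notes, bcl2fastq 2.19.1.403 and STAR were used with GRCm39. The gene counter, annotation release and strand setting were not given in the sources used here.

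Estimated counts were rounded, filtered with filterByExpr by group (19718 genes), TMM-scaled and compared with edgeR 4.0.16 (robust quasi-likelihood F test, R 4.3.3), with Benjamini-Hochberg adjustment over all genes tested and a threshold of 0.05. The fit was tested on simulated data. The biological coefficient of variation was 27.8%. Totals of 74.0 to 82.6 M counts put 110 or more counts behind each value of the 10 genes, so counting error is small beside the spread among tumours. Replicates were numbered in accession order and pair nothing. Alternatives were RLE and upper quartile scaling, no filter and a stricter one (at least 1 CPM in at least 4 libraries), DESeq2 1.42.0, limma 3.58.1 (voom with and without sample weights, and the deposited CPM as log2(CPM + 1) and log2(CPM + 0.25)), each library left out, both U libraries left out, the suffix as a covariate, and H2-DMb1 and H2-DMb2 summed.

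The 10 genes and the 17 lists were chosen with earlier results of these data known. Named genes are the 10 members, the 2 tested genes of smallest unadjusted p in each list, the 5 genes nearest to the members' profile, and genes behind a count of 5 or fewer. Others were named outside this rule, among them Krt8, Csf1r, Cd68, Mrc1, Fcgr1, Itgax, Tcf4, Dexi and Brd2. Gene positions are those of the deposited table, 1-based. Sequences are from RefSeq (GRCm38.p6), and transcript lengths from GENCODE M21, both used without converting coordinates.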

Additional observations from a re-analysis of the deposited data

How the results depend on the processing

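The log2 fold change of each of the 10 genes stayed above 0 under every alternative run, in 192 values of which 185 kept their side of the threshold and 7 passed it, all with DESeq2. DESeq2 called 7 of the 10 at an adjusted p under 0.05, against 0 in edgeR, and the cause was not tested. The median log2 fold change of the 10 ran from 1.55 (limma-voom with sample weights) to 2.77 (without GrB-Fc-KS49 replicate 3), and upper quartile scaling put the median of all genes at 0.09. The count of the 10 genes higher at an unadjusted p under 0.05 was 9 in edgeR, against 17.3% of all genes. It was 1 with limma-voom (14.1% of all genes) and 1 with limma-voom with sample weights (12.7%). With limma on log2(CPM + 1) and on log2(CPM + 0.25) it was 1 as well, Ifi30 in each of these runs. In either direction, limma on these CPM had 6353 and 6289 of all 19718 genes under that p, against 6915 in edgeR. Leaving out 1 library, the edgeR count of the 10 ran from 1 (without GrB-Fc-KS49 replicate 1) to 10 (without GrB-Fc-KS49 replicate 3 or 4). It was 5 without GrB-Fc-KS49 replicate 2 and 4 without IgG control replicate 1, 2 or 4. All genes under that p in either direction numbered 5585 of 19944, 6372 of 20022, 7328 of 19992 and 7845 of 20102 without GrB-Fc-KS49 replicate 1, 2, 3 and 4. They numbered 5134 of 20145, 5228 of 20173 and 5898 of 20128 without IgG control replicate 1, 2 and 4. The count of the 10 whose groups did not overlap was 1 with all 8 libraries, against 10.3% of all genes. It ran from 1 to 7 over the libraries left out, with 7 without GrB-Fc-KS49 replicate 3, against 14.4% of all genes. Without both libraries of the U suffix it was 7, against 16.2% of all genes. Over all genes and in either direction, edgeR called 1260 without GrB-Fc-KS49 replicate 1 and 3447 without GrB-Fc-KS49 replicate 4, against 0 with all 8. Of the 10 genes, 0 were among them. No paired analysis was possible because the labels give no replicate numbers, and the M numbers in the titles differ for all 8 tumours. Each value of the 10 genes rests on 110 or more counts, so counting error is small beside the spread among the treated tumours.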
